A study of Mus musculus with 16 samples.

Results

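Ifi204, Ifi205 and Ifi209 of the Ifi200 (HIN-200) family, Ifi27l2a and Ifi27l2b of the Ifi27 family, and Ifi35 are 6 interferon-inducible mouse genes that were chosen by name. The choice was made with earlier results of these data known. All 6 were measured, each by 1 probe, among 20629 features tested, of which 16481 had a gene symbol. They were compared in lungs of male C57/BL6 mice aged 8 weeks that inhaled aerosolised lipopolysaccharide (LPS), a component of the Gram-negative outer membrane, for 5 days, and in lungs of male C57/BL6 mice of the same age kept on air for 5 days. Lungs were taken at the end of day 5. Each group had 4 RNA pools of 3 animals, and each pool was hybridised on 2 two-colour arrays against a commercial universal mouse reference RNA (UMRR), with the dyes exchanged between the arrays. For the LPS, dose and origin are not given in the sources used here. Because RNA came from whole lung, a change in the number of cells of a type and a change in the RNA per cell cannot be told apart.

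HIN-200 proteins bind DNA through their HIN domains, and most carry a pyrin domain that binds other pyrin proteins. Aim2 of this family assembles an inflammasome on cytosolic DNA, and mouse Ifi204 is related to human IFI16, a nuclear and cytosolic DNA sensor. Ifi27-like proteins are small hydrophobic membrane proteins induced by interferon. Ifi35 forms a complex with Nmi, another interferon-inducible protein, and both can be released from macrophages and act as danger signals. In macrophages, LPS sensed by TLR4 leads to the production of type I interferon, which acts through JAK kinases on interferon-stimulated response elements (ISRE) of its target genes, while interferon gamma acts on gamma-activated sites (GAS).

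The promoter windows of Ifi205, Ifi209 and Ifi35 are shown because interferon-inducible genes are known to be controlled through such elements. The promoter annotation used held no window for Ifi204, Ifi27l2a or Ifi27l2b, so these genes could not be examined. Each window runs from 250 bases before to 50 bases after the annotated start, 5′ to 3′ on the strand of the gene (RefSeq, GRCm38.p6). Capitals mark matches to the ISRE core (GAAA and, after any 2 bases, GAAA again) or the GAS core (TTCNNNGAA), searched on both strands.
Ifi205, chr1:174031706-174032005, minus strand: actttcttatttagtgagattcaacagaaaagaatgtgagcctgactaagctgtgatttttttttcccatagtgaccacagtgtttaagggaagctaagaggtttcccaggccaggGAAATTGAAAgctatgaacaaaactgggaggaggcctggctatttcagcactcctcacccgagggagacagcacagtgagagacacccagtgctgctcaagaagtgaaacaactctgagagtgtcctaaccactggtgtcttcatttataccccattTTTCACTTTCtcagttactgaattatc
Ifi209, chr1:173630609-173630908, plus strand: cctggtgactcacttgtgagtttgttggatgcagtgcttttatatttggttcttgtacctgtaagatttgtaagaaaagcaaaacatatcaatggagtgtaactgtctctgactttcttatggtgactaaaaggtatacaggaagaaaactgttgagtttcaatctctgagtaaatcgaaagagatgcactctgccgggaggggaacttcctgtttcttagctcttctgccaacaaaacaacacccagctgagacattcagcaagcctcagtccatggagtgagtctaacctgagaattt
Ifi35, chr11:101448162-101448461, plus strand: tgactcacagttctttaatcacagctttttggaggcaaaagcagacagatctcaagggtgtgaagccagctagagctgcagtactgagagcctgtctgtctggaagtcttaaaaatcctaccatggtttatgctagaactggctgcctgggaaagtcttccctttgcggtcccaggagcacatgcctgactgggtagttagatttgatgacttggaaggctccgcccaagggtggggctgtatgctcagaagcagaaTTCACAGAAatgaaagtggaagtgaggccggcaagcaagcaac
The Ifi205 window held 2 matches to the ISRE core and 0 to the GAS core. One, GAAATTGAAA, began 134 bases before the annotated start, and the other, TTTCACTTTC, lay on the opposite strand 23 bases after it. The Ifi209 window held 0 matches to either core. The Ifi35 window held 1 match to the GAS core, TTCACAGAA, 7 bases after the start, and 0 to the ISRE core. Over 32851 windows of the same length, 3.44% held the ISRE core and 8.3% the GAS core. None of the matches overlapped another, and a match describes letters and not a bound site.

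In the RefSeq order of protein-coding genes, the 3 HIN-200 genes lie on chromosome 1 in the run Aim2, Ifi206, Ifi214, Ifi213, Ifi209, Ifi208, Ifi207, Ifi204, Mndal, Ifi211, Ifi203, Ifi202b and Ifi205. On chromosome 12, Ifi27l2a and Ifi27l2b flank Ifi27. Ifi35 is on chromosome 11.

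All levels are log2(lung/reference) per pool, so that 0 means equal signal in lung and reference RNA, and the level of one gene cannot be set against that of another. Differences are LPS minus air on the log2 scale with their standard error (SE). Of 16 arrays, 15 were used. Air pool 4 was represented by its Cy5 array alone, since the other file under its name joined the images of 2 different arrays. Between 97.2% and 99.5% of the spots of an array had signal in both channels, and the median net lung signal of an array was 4.28 to 28.2 times the local background. Of the 90 spots of the 6 genes on these arrays, 89 had signal in both channels, and on each of them the net lung signal was at least 3.03 times the local background. The missing spot was Ifi35 on the array of LPS pool 1 with lung in Cy3. Precision is limited by how many pools there were. The 17 lung tissue markers, such as the surfactant proteins Sftpb and Sftpc, lay between percentiles 96.83 and 99.99 of lung over reference in air.

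The files hold no probe names, so each of the 22575 spots was named by its row and column in an orientation inferred from the arrays, and all gene names depend on it. In the orientation used, genes with 2 probes gave r = 0.523 between them over 1030 pairs in the air pools, against at most 0.0701 in 7 other orientations. The arrays were read with 2 versions of the image program, 2.2.3 for LPS pools 1 and 2 and air pools 3 and 4, and 2.2.4 for LPS pools 3 and 4 and air pools 1 and 2. The values within each version are given beside those of each of the 6 genes. The image names carry a week number, which was 1 for the LPS arrays and 4 or 8 for the air arrays. It therefore cannot be told apart from the exposure in any difference below. Among the air pools it was 4 for pools 1 and 2, read with version 2.2.4, and 8 for pools 3 and 4, read with version 2.2.3. A difference between the program versions thus cannot be told apart from the week number in air, or from the pools themselves in LPS.

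Of the 6 genes, 4 were higher in LPS lungs: Ifi205, Ifi204, Ifi27l2a and Ifi209 rose between 1.94-fold and 5.72-fold, while Ifi27l2b and Ifi35 did not pass the test (limma, Benjamini-Hochberg adjusted over all 20629 features, two-sided, threshold 0.05). Of all features, 6.67% differed by the same test, 5.95% higher and 0.713% lower. With the program version as a block the same 4 genes were higher, beside 8.72% of all features, and 0 of the 6 were lower, beside 2.26%. In the 4 genes that rose, every LPS pool lay above every air pool, which held for 11.3% of the 20356 features measured in all pools. These 4 differences lay between percentiles 97.11 and 99.81 of all differences.

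**Figure D1:**
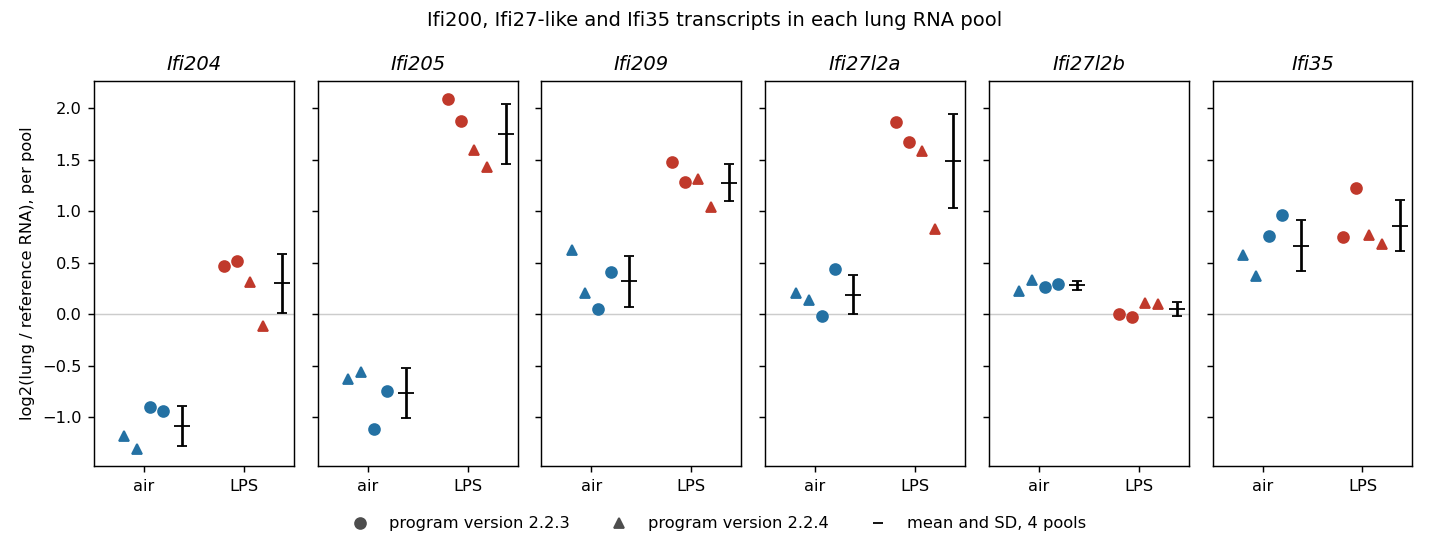
Level of each gene, as log2(lung/reference RNA), in the 4 air pools (blue) and the 4 LPS pools (red), with the mean and SD of each group in black and the version of the image program as the marker shape. The LPS pools lie above the air pools for Ifi204, Ifi205, Ifi209 and Ifi27l2a, slightly below them for Ifi27l2b, and for Ifi35 3 of the 4 LPS pools lie within the range of the air pools.

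Ifi205, a HIN-200 gene known from LPS-treated mouse macrophages, changed most among the 6. Its level was 2.10, 1.88, 1.60 and 1.43 in LPS pools 1 to 4. In air pools 1 to 4 it was -0.63, -0.56, -1.12 and -0.75. The groups were separated by a wide gap, with transcript below the reference in every air pool and above it in every LPS pool. The mean rose from -0.77 ± 0.25 to 1.75 ± 0.30 (SD, n = 4 pools each), a rise of 2.52 ± 0.18 or 5.72-fold (95% interval 4.33 to 7.56-fold, limma adjusted p = 5.16e-05). This was the 41st largest of the 1228 significant rises.
The rise of Ifi205 was 2.92 in the pools read with version 2.2.3 and 2.11 in those read with version 2.2.4. The difference between the versions did not pass the test (-0.81, limma interaction, adjusted p = 0.0647), whereas 8.72% of 20356 features did.

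Ifi204, whose product p204 is a multifunctional nuclear regulator in macrophages and other cells, rose 2.61-fold. Its level was 0.47, 0.52, 0.32 and -0.11 in LPS pools 1 to 4. It was -1.18, -1.31, -0.91 and -0.94 in air pools 1 to 4. LPS pool 4 was the lowest LPS pool, yet stood clear of the highest air pool. The rise was 1.38 ± 0.17 (limma adjusted p = 0.00101, 95% interval 2.01 to 3.39-fold), with 1.42 and 1.35 within the versions.

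Ifi209, also known as Pyhin1, rose 1.94-fold. Its level was 1.48, 1.29, 1.31 and 1.04 in LPS pools 1 to 4. In the air pools it was 0.62, 0.20, 0.05 and 0.41. All 8 pools were above the reference, and the lowest LPS pool exceeded the highest air pool. The rise was 0.96 ± 0.16 (limma adjusted p = 0.006, 95% interval 1.52 to 2.48-fold). It was 1.16 in version 2.2.3 and 0.76 in version 2.2.4, and fitted on the 4 pools of version 2.2.4 alone it missed the threshold (limma adjusted p = 0.0836). It also missed it on the arrays with lung in Cy3 alone (0.99 ± 0.20, limma adjusted p = 0.054). Over 22 alternative settings its adjusted p lay between 0.00473 and 0.0836.

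Ifi27l2a, the mouse Isg12 transcript, rose 2.46-fold. Its level was 1.87, 1.67, 1.58 and 0.83 in LPS pools 1 to 4 and 0.21, 0.13, -0.02 and 0.44 in air pools 1 to 4. LPS pool 4 lay well below the other LPS pools and still above all air pools. The rise was 1.30 ± 0.22 (limma adjusted p = 0.00626, 95% interval 1.76 to 3.43-fold), with 1.56 and 1.04 within the versions. Without LPS pool 4 it was 1.52 ± 0.16. In version 2.2.4 alone, which holds that pool, it missed the threshold (limma adjusted p = 0.0883, range over 22 settings 0.00093 to 0.0883).

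LPS pool 4 gave the lowest LPS value for all 4 genes that rose. The same pool was the lowest of the LPS pools for 40.7% of the 1225 significantly higher features measured in every pool. Without it the rises were 1.52 for Ifi204, 2.62 for Ifi205 and 1.04 for Ifi209, and each passed the test.

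Ifi27l2b, the close neighbour and relative of Ifi27l2a, did not rise. Its level was 0.0039, -0.03, 0.11 and 0.10 in LPS pools 1 to 4 and 0.22, 0.34, 0.26 and 0.29 in air pools 1 to 4. Each LPS pool was thus below each air pool, as in 5.44% of features, but by little. The difference was -0.23 ± 0.11 (limma adjusted p = 0.251, unadjusted p = 0.0621), with -0.29 and -0.18 within the versions. Its 95% interval, -0.48 to 0.01, holds at most a 1.39-fold fall.

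Ifi35, the leucine zipper protein that partners Nmi, showed overlapping groups. Its level was 0.75, 1.23, 0.77 and 0.69 in LPS pools 1 to 4. In air pools 1 to 4 it was 0.58, 0.37, 0.76 and 0.96. LPS pool 2 stood above the other 7 pools, and the remaining LPS pools fell within the range of air. The difference was 0.19 ± 0.17 (limma adjusted p = 0.542), or 1.14-fold with a 95% interval of 0.877 to 1.49-fold, and 0.13 and 0.25 within the versions. The value moved with the dye and with 1 pool: it was 0.55 on arrays with lung in Cy3, 0.02 with lung in Cy5, and 0.07 without LPS pool 2, and it passed the test in none of 22 settings (limma adjusted p between 0.233 and 0.947).

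The arrays of a pool with the dyes exchanged are a technical repeat. The median gap between them ranged from 0.09 for Ifi27l2b to 0.41 for Ifi205, against 0.23 over all features. For Ifi204 the array with lung in Cy3 gave the higher ratio in 7 of 7 pools and for Ifi205 in 6 of 7. Air pool 4 has no Cy3 array in the mean. With lung in Cy5 alone, where all 8 pools are measured with the same dye, the rises were 1.25 ± 0.21 for Ifi204 and 2.52 ± 0.26 for Ifi205 (limma adjusted p = 0.00956 and 0.000857). With lung in Cy3 alone they were 1.53 and 2.47.

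**Figure D2:**
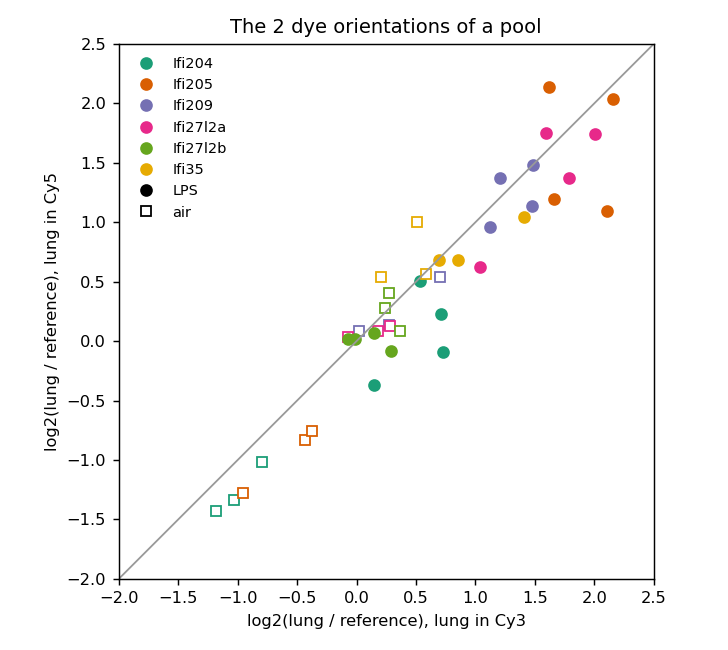
Log2(lung/reference) of each gene on the array of a pool with lung in Cy3 (horizontal) and on the one with lung in Cy5 (vertical), for the pools that have both, LPS filled circles and air open squares. Points of Ifi204 and most of Ifi205 lie below the line of equality.

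The rises within a family were compared pool by pool, as the difference between the log2 ratios of a pair of genes, in 4 pairs. Ifi205 minus Ifi204 was 1.28 to 1.63 in the LPS pools and -0.21 to 0.75 in the air pools, so Ifi205 rose by 1.13 more than Ifi204 (exact two-sided permutation test, p = 0.0286, the smallest that 4 against 4 pools allow, adjusted over 4 pairs 0.0381). Ifi205 rose by 1.56 more than Ifi209, with the same exact p of 0.0286 (adjusted 0.0381). Between Ifi209 and Ifi204 the difference of the rises was -0.43, and the groups overlapped (exact p = 0.114). Ifi27l2a minus Ifi27l2b was 0.73 to 1.87 in LPS and -0.28 to 0.15 in air, a gap in response of 1.53 between these neighbouring genes (exact p = 0.0286, adjusted 0.0381). Each LPS pool lay above each air pool for Ifi27l2a and below each air pool for Ifi27l2b. This exact p follows from those separations and adds nothing to them. Without 1 pool the smallest exact p is the same 0.0286, of 35 splits. Both pairs with Ifi205 gave it without each of the 8 pools in turn, though adjusted over the 4 pairs it rose to 0.0571 without air pool 1, 2 or 4. Ifi27l2a against Ifi27l2b gave an exact p of 0.0571 without any 1 of the 4 air pools (gaps of 1.47 to 1.61). Ifi209 against Ifi204 gave an exact p of 0.0286 without air pool 3 (-0.57, adjusted 0.0381). The sizes hold on the scale of these probes, whose response to a given change in RNA was not measured.

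**Figure D3:**
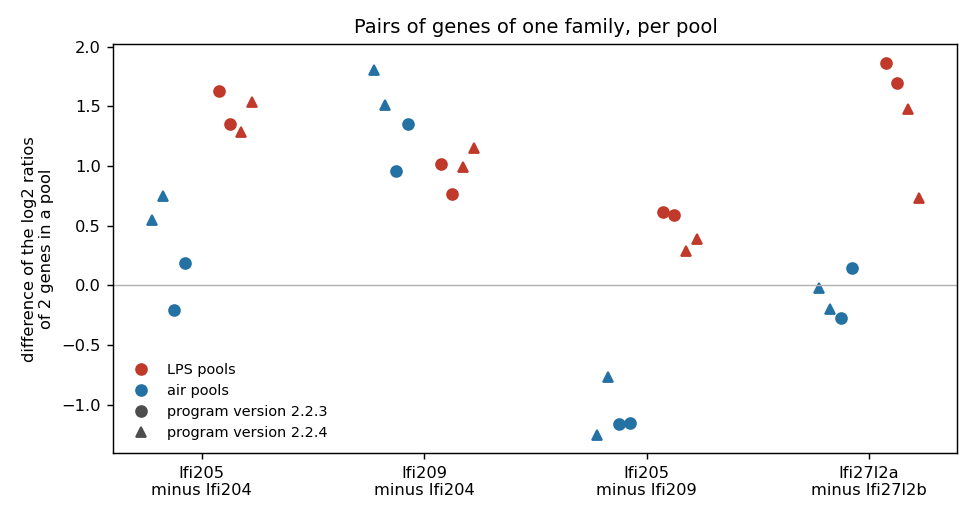
Difference between the log2(lung/reference) values of a pair of genes in each air pool (blue) and LPS pool (red), with the version of the image program as marker shape. The groups are separate for Ifi205 against Ifi204, Ifi205 against Ifi209 and Ifi27l2a against Ifi27l2b, and overlap for Ifi209 against Ifi204.

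Of the other HIN-200 genes, Aim2 and Ifi202b were measured. The level of Aim2 was -0.35, -0.68, -0.39 and -0.27 in LPS pools 1 to 4 and -1.21, -1.32, -1.76 and -1.85 in the air pools. The groups did not overlap, and Aim2 rose by 1.11 ± 0.18 or 2.16-fold (limma adjusted p = 0.00456), with 1.29 and 0.94 within the versions. Its lung signal in air was dim, at a median of 1.54 times the local background. Ifi202b, which has no pyrin domain and is known to be poorly expressed in C57BL/6 mice, was far below the reference in every pool. Its level was -1.46 and -1.57 in LPS pools 1 and 2, -1.72 and -2.09 in air pools 3 and 4, and between -2.96 and -2.49 in the other 4 pools. The pools thus separated by program version, which in air coincides with the week number, and not by exposure. The difference between LPS and air was 0.08 ± 0.34 (limma adjusted p = 0.917). With the members, 4 of 5 measured HIN-200 genes were higher, 0 lower and 1 did not pass. The median difference was 1.11, against 0.01 over all features. The probes of this family were not checked for sharing signal between its related genes.

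Nmi, the partner of Ifi35, rose by 0.75 ± 0.19 or 1.68-fold (limma adjusted p = 0.0399). Its level was 0.996, 1.16, 1.62 and 1.39 in LPS pools 1 to 4 and 0.78, 0.81, 0.26 and 0.32 in the air pools, with no overlap. Median centring in place of loess ended this call.

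**Figure D4:**
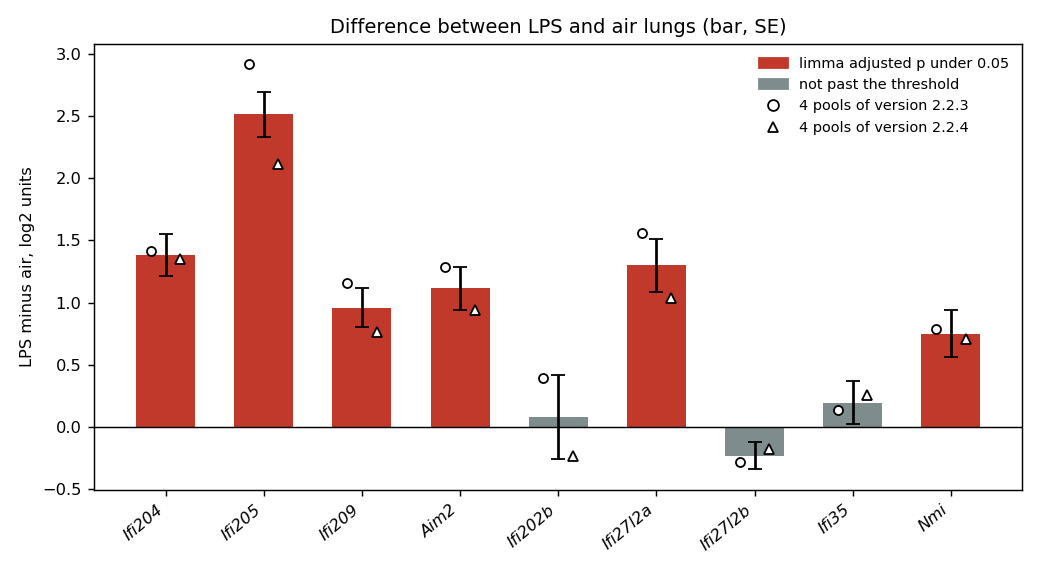
Difference between LPS and air lungs in log2 units for the 6 genes and for Aim2, Ifi202b and Nmi, with the SE (4 pools per group). Open symbols give the same difference within the pools of each program version. Bars past the limma threshold are red, and the open symbols lie on both sides of 0 for Ifi202b alone.

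The counts of gene lists below stand beside 5.95% of all features higher and 0.713% lower. Counts at an unadjusted p under 0.05 stand beside 4636 of the 20629 features at that limma cut. The 8 measured interferon genes differed by -0.58 for Ifna1 to 0.16 for Ifna4. None of the 8 passed the limma test (2 at an unadjusted p under 0.05). Of all features 6.67% did, so that 0 of 8 is near the background. For Ifna1, Ifna9 and Ifnb1 each LPS pool lay below each air pool, as in 5.44% of features. The groups overlapped for the other interferon genes. With program version as a block Ifna1 was lower (limma adjusted p = 0.0470, against 0.0616 without it). Interferon beta (Ifnb1) was at -0.48 ± 0.15 (limma adjusted p = 0.0956) and interferon gamma (Ifng) at 0.09 ± 0.17 (limma adjusted p = 0.778). The lung signal of Ifng in air was dim, at a median of 2.54 times the local background. Of 6 receptor chains, 2 were higher and 0 lower: Ifnar2, of the type I receptor, by 0.66 ± 0.13, and Il10rb, shared by the lambda interferon and interleukin-10 receptors, by 0.69 ± 0.15, a call lost with median centring (limma adjusted p = 0.053). The receptor chain Ifnar1 was at 0.41 ± 0.16 (limma adjusted p = 0.161), and the interferon gamma receptor chain Ifngr1 at -0.08 ± 0.23 (limma adjusted p = 0.868).

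Of 17 genes of JAK-STAT signalling and interferon regulatory factors, 7 were higher, 0 lower and 10 did not pass. The feedback inhibitor Socs3 rose by 2.14 ± 0.19, the kinase Jak2 by 1.65 ± 0.16 and Stat2, a subunit of the factor that binds ISRE, by 1.52 ± 0.17. The list's median difference was 0.60. In cytosolic DNA sensing and the inflammasome, 7 of 20 were higher, 0 lower and 13 did not pass (median 0.38). The 3 with the smallest p were Il1b, a cytokine matured by the inflammasome (3.45 ± 0.26), the interleukin-18 inhibitor Il18bp (1.72 ± 0.21) and the LPS-sensing caspase Casp4 (0.99 ± 0.14).
Among 53 other interferon-stimulated genes, 33 were higher, 0 lower and 20 did not pass, with a median of 1.07. The chemokines Cxcl10 (5.44 ± 0.17) and Cxcl9 (3.83 ± 0.22) and the antiviral enzyme Rsad2 (2.80 ± 0.16) had the smallest p. Their lung signal in air was dim, at a median of 1.32, 1.68 and 2.37 times the local background in that order. The rise of Ifi205 was above the median of that list and below the rises of Cxcl10, Cxcl9 and Gbp2 (3.11 ± 0.34). Against Rsad2 the order changed with the program version: 2.92 against 2.60 in version 2.2.3, and 2.11 against 3.00 in version 2.2.4. The sizes of these rises were not tested against each other.

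Some markers of phagocytes were higher in the same comparison, and others did not pass the test. Among 18 markers of macrophages and monocytes, 11 rose, 0 fell and 7 missed the threshold; those that rose included the LPS co-receptor Cd14 (1.84 ± 0.17) and the lysosomal protease Ctss (2.06 ± 0.21). The mean level over the list was 1.65 to 2.10 in the LPS pools and 0.33 to 0.95 in the air pools, and 0 of the 18 were dimmer than their local background on 4 or more air arrays. Among 16 genes listed as neutrophil markers, 7 rose, 0 fell and 9 missed the threshold. The smallest p belonged to the lectins Clec4d (3.28 ± 0.28) and Clec4e (2.86 ± 0.26). Of the granule genes, Ltf (1.62 ± 0.25) and Lcn2 (4.55 ± 0.55) rose. Mpo (-0.10 ± 0.13), Elane (0.29 ± 0.23), Camp (0.51 ± 0.68), Ngp (-0.13 ± 0.15), Mmp8 and Mmp9 were among the 9. So was Cela2a (0.36 ± 0.19), which entered through the symbol Ela2 and is not a neutrophil marker. The mean level over the 16, with Cela2a, was 1.29 to 2.11 in LPS and -0.10 to 0.58 in air. Of the 16, 1, Clec4e, was dimmer than its local background on 4 air arrays out of 7. The part of these cells in the rises of the HIN-200 genes and Ifi27l2a was not tested.
Of 17 markers of T and NK cells, 0 rose and 0 fell (limma, 2 at an unadjusted p under 0.05). Cd2 was at -0.36 ± 0.14 and Cd8a at 0.35 ± 0.15, and the list's mean level was 0.08 to 0.19 in LPS and -0.03 to 0.21 in air. Among 11 markers of B cells and plasma cells, 2 rose, the receptor Fcer2a (1.03 ± 0.16) and the transcription factor Xbp1 (0.91 ± 0.22), and 0 fell. With median centring Xbp1 missed the threshold (0.95 ± 0.26, limma adjusted p = 0.086). With program version as a block the B cell receptor chain Cd79b (-0.57 ± 0.14) and the kinase Blk (-0.47 ± 0.13) were lower (limma adjusted p = 0.0257 and 0.0435). The list had a mean level of -0.26 to -0.16 in LPS and -0.45 to -0.30 in air. Of the 17 lung tissue markers 0 passed the limma test (3 at an unadjusted p under 0.05). The secretory cell enzyme Cyp2f2 was at -1.84 ± 0.59 (limma adjusted p = 0.0965) and the type 2 cell protease Napsa at 1.14 ± 0.39 (limma adjusted p = 0.113). With program version as a block Cyp2f2 was lower (limma adjusted p = 0.000394), and Napsa (limma adjusted p = 0.0273) and Lamp3, a lysosomal protein of type 2 cells (1.38 ± 0.17, limma adjusted p = 0.000953), were higher. The rise of Napsa was 1.90 in version 2.2.3 and 0.38 in version 2.2.4, and this difference passed the test (limma interaction, adjusted p = 0.0235).

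**Figure D5:**
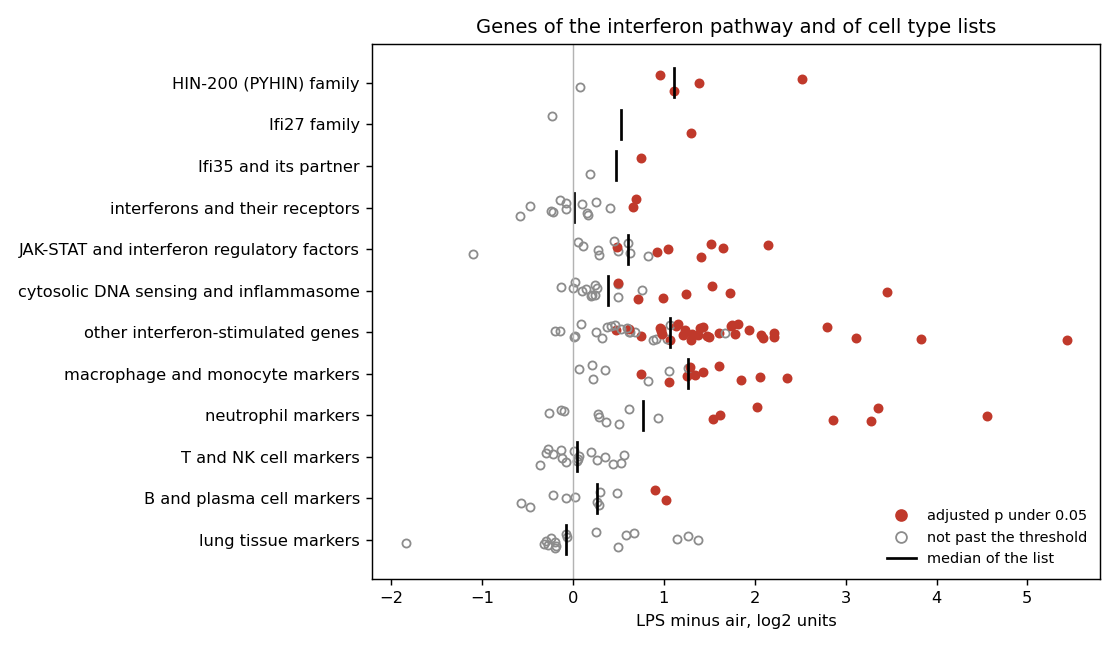
Difference between LPS and air lungs, in log2 units, of each measured gene of 12 lists (members included in the first 3), filled red where the limma adjusted p was under 0.05, with the list's median as a black bar. The HIN-200 family has a median of 1.11, next to 1.07 for other interferon-stimulated genes and 0.01 for interferons and their receptors.

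Genes with the most similar pattern over the 8 pools were found by Pearson's r among 16324 named genes, as a description that mostly follows the split between the groups. To the mean profile of the 6 genes, Cd14 (r = 0.995), the sorting nexin Snx10 (0.994) and Morc3 (0.994) came closest. To Ifi27l2a alone the closest were Morc3 (0.996), Nudt21 (0.991) and Mcfd2 (0.989). Snx10 differed by 1.09 ± 0.16, Morc3 by 0.76 ± 0.14 and Mcfd2 by 0.90 ± 0.18. Nudt21 differed by 0.49 ± 0.12, while its second probe gave -0.22.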

How the data were processed

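Total RNA of 8 lung pools, extracted with Trizol, was labelled in portions of 5 ug with Cy3 or Cy5 and hybridised against a reference RNA, per the labels' protocols. Group, pool number and dye were read from the titles. Arrays of the same pool were averaged to 1 replicate.

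The deposited spot intensities were made with TIGR Spotfinder 2.2.3 or 2.2.4, per the file headers. Their values are net of a local background, which the files give as a second intensity, and are not normalised. A factor per spot (SF), a fraction from 0 to 1 that the deposited files do not define, was 1 on every spot of the 6 genes used. A second deposited table holds the authors' log2 ratios, and a log10 ratio for air pool 4 with lung in Cy3, with the normalisation not stated. Set against the spot intensities, its columns ran as lung over reference, and it served as an alternative. The file of that array pairs its Cy3 image with the Cy5 image of air pool 3, per the file headers, and the Cy5 values of both correlated at r = 0.9945 (next highest 0.896), so it was left out.

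Spots at or below 0 in a channel were missing. With R 4.3.3 and limma 3.58.1, ratios were loess-normalised within arrays, turned to lung over reference, averaged per pool and fitted with lmFit and eBayes, two-sided. Features with at least 3 pools per group were tested, with Benjamini-Hochberg adjustment over all of them. The fit was tested on simulated data. The annotation gave 1 symbol for 18218 probes, several for 16 and none for 4341, and 18175 were matched to RefSeq (GRCm38.p6) with 0 symbols changed. A gene with several probes was read from the brightest.

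The 6 genes, the 12 gene lists and the tests were chosen with earlier results of these data known. Named genes were the members, the measured genes of their families, interferons and receptors, the 3 smallest p of each other pathway list, the 2 smallest p of each marker list and the 3 most similar patterns. Some listed genes are not analysed here. The main fit did not pair the pools by the numbers that the groups share. Whether those numbers pair the pools cannot be told from these data.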

Additional observations from a re-analysis of the deposited data

Results flagged for a closer look

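The level of Ifi35 in LPS pool 2, at 1.23, stood apart from the other LPS pools, which lay between 0.69 and 0.77. Its gap to the nearest of them was 0.847 of the range of the group, above Dixon's 95% critical value for 4 samples. Chance gives such a value in about 1 of 20 groups, and 12 groups were examined (6 genes in LPS and air). Without that pool Ifi35 differed by 0.07 ± 0.17 (limma adjusted p = 0.857).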

How the results depend on the processing

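Under 22 alternatives to the comparison, Ifi204 (1.22 to 1.53) and Ifi205 (2.11 to 2.92) kept their direction and their call. Ifi209 kept its direction and lost its call in 2 settings, lung in Cy3 only (0.99) and version 2.2.4 alone (0.76). Ifi27l2a lost it in 1, version 2.2.4 alone (1.04), where 2 of the 6 genes were higher in place of 4. Each of these settings has fewer pools or arrays. Version 2.2.3 alone, also with 4 pools, kept the calls of Ifi209 (1.16 ± 0.20, limma adjusted p = 0.00516) and Ifi27l2a (1.56 ± 0.21, limma adjusted p = 0.00189). Why the calls were lost was not tested. Ifi27l2b (-0.29 to -0.18) and Ifi35 (0.02 to 0.55) passed in none. The number of features that differed, 1375, was 735 with median centring, 501 with all 16 arrays, 416 with lung in Cy3 only, 2265 with program version as a block and 4707 in version 2.2.3 alone. Fits without 1 pool gave 711 to 1262, with 711 without LPS pool 1, 752 without LPS pool 2, 829 without LPS pool 3 and 766 without air pool 4, and 4 of the 6 genes were higher in each of the 8 fits. The causes of these shifts were not tested. With the pool number as a replicate block 857 features differed and 4 of the 6 genes were higher. The correlations of deviations between pools of the same number were -0.04, -0.26, -0.05 and -0.25. Of the LPS pools, 0 of 4 correlated best with its own number. Pools of the same number were read with different program versions, so these correlations cannot show whether the numbers pair the pools. With median centring 0 of the Ifi35 and Nmi pair (Nmi lost), 1 interferon or receptor gene (Il10rb lost) and 1 B cell marker (Xbp1 lost) were higher. With program version as a block 1 interferon gene (Ifna1) and 2 B cell markers (Cd79b and Blk) were lower, and 2 lung markers were higher (Napsa and Lamp3) and 1 lower (Cyp2f2). The pair tests were repeated in 16 settings chosen after the data were seen, and no direction changed. With lung in Cy3 only, which leaves out air pool 4, the differences of the rises of Ifi205 and Ifi204 (0.94), Ifi205 and Ifi209 (1.48) and Ifi27l2a and Ifi27l2b (1.68) had an adjusted exact p of 0.0571. Without 1 pool, the gap ranged from 0.96 to 1.27 for Ifi205 and Ifi204, 1.502 to 1.66 for Ifi205 and Ifi209, -0.57 to -0.29 for Ifi209 and Ifi204 and 1.39 to 1.77 for Ifi27l2a and Ifi27l2b. An exact p at its smallest value cannot show that a result became stronger or weaker, and within a version the test cannot pass. Separate probes of a gene were not run, since the 6 genes have 1 probe each.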
